A study of Mus musculus with 2 samples.

Results

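Intron retention was described for 549 introns of the N2A transcriptome, the members of the intron retention class of the SpliceTrap exon database that carried enough reads and were neither always spliced nor always retained. In this class an event is a trio of an upstream exon, an intron and a downstream exon, and its retention is the percentage of transcripts estimated to keep the intron. The database held 1190 such trios over 1184 distinct introns. An intron with several trios was represented by its best covered one, both libraries counted together. The 549 introns were selected on measured values, namely in each library a minimum of 20 reads for the trio, and a corrected retention of 5% to 95% in at least 1 library. Of the 1184 introns, 836 reached 20 reads in both libraries. Among the introns left out, 166 were below 5% in both libraries, 116 were above 95% in both, and 5 were below 5% in one library and above 95% in the other.

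The libraries were made from N2A, a mouse neuroblastoma cell line, transfected with a control shRNA or with an shRNA against Ptbp1 and collected 3 days later. Each condition was 1 library of paired reads of 100 bases, prepared with dUTP so that the strand is kept. Every difference below is therefore a difference between 2 libraries, with no replicate check, and the intervals given with it cover counting error only. For short, the libraries are called the control and the knockdown. PCR copies cannot be told from separate molecules in these reads.

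Intron retention leaves an intron inside the finished, polyadenylated transcript. Such transcripts are often held in the nucleus, or, when the intron carries a stop codon in the reading frame, degraded by nonsense-mediated decay after export. PTBP1 binds pyrimidine-rich RNA and represses many exons, and in neural precursors it is also known to keep some terminal introns of neuronal genes from being spliced. Vamp2, Sv2a and Kif5a, neuronal genes with terminal introns of that kind, had 0 introns in the retention class of the database, so they could not be followed here.

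The labels were checked on host transcript abundance, given as mean read depth per base. Ptbp1 stood at 2710 in the control and 832 after knockdown, a log2 FPKM ratio of -1.61. Its paralogs Ptbp2, which is expressed in neurons, and Rod1, the annotated name of Ptbp3, had log2 ratios of 0.93 and -0.88. Of the neural and neuroblastoma markers, 7 had depths of 48.2 to 4146 in both libraries, whereas Nefl and Nefm stayed at or below 0.531. The 6 markers of other cell types did not exceed 10.3, and Alb and Cd3e were at 0 in both. In RNA from a whole culture, fewer cells of a type and less RNA per cell cannot be told apart, nor can partial retention in all cells and full retention in some. Counted once per distinct junction, the exon database collected 74295106 exon-exon junction reads in the control and 58228465 after knockdown.

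The splice sites of these introns set where junction and boundary reads are counted. Their sequences were read as a description and did not enter the retention values. A few are printed because they mark the introns the results turn on. All were read from the NCBIM37 assembly, which is mm9, 5′ to 3′ on the transcribed strand. Of the 546 introns with a genome sequence, 524 began with GT and 13 with GC, and 538 ended with AG. The intron of Zfp740 that rose most among those with a GC donor (chr15:102038793-102039183, plus strand) begins as follows, with the donor in capitals.
Zfp740 first 30 bases: GCaggtaatggggaagccccagactcgtgc
The short intron 8 of Qtrt1 (chr9:21223993-21224068, plus strand), with 76 bases, is shown whole, with the donor and acceptor in capitals.
Qtrt1 intron 8: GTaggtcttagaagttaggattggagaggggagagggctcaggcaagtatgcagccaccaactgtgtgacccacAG

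In Mau2, which encodes a cohesin loader subunit, 3 events share the 3′ end of 1 intron (chr8:72546569, minus strand) and use donors 3 and 4 bases apart. They are printed because events of this kind divide the reads of 1 intron among themselves. The donor of each is in capitals.
Mau2 donor at 72547512: GTagtaggtgacatgcttcatgttcggtat
Mau2 donor at 72547509: GTaggtgacatgcttcatgttcggtatcct
Mau2 donor at 72547505: GTgacatgcttcatgttcggtatccttctc

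The pyrimidine tract that U2AF binds, and to which PTBP1 can also bind, usually lies near the 3′ end of an intron. Among the ends printed below, a long run of pyrimidines is plain in Dnajb2 and Sec14l1, but not in Mat2a and Med22. Mat2a had the best covered of the largest rises, Dnajb2 was another rise, and Med22 and Sec14l1 were falls. Each sequence ends at the acceptor, whose dinucleotide is in capitals.
Mat2a last 30 bases (chr6:72384390-72384419, minus strand): catattaagttatggacttgtatattccAG
Dnajb2 last 30 bases (chr1:75241339-75241368, plus strand): tcctgtcacccacccctgctctctccccAG
Med22 last 30 bases (chr2:26761514-26761543, minus strand): cactcctgggggtttcttgtggtggcaaAG
Sec14l1 last 30 bases (chr11:117020038-117020067, plus strand): ccttcccctctccctttctccatgtcccAG

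Most of the 549 introns were kept in a minority of transcripts. The median retention was 26.9% in the control, with quartiles of 10.3% and 59.5%, and 31.0% after knockdown, with quartiles of 13.5% and 62.1%. In the control library 259 introns were below 25%, 192 lay from 25% to below 75% and 98 were at 75% or more. In the knockdown library these counts were 239, 219 and 91. The order of the introns was nearly the same in both libraries, with a Spearman rho of 0.955 across the 549 introns, which share their libraries and, in part, their genes. A median of 544 reads in the control and 595 after knockdown supported a trio, of which 188 and 181 lay on a junction or on an intron boundary.

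The estimate can be set against the boundary and junction reads alone. Junction retention compared the reads over the intron boundaries, averaged over both, with the spliced reads over the exon-exon junction, and was the share of the former in the total. Across the introns its rho with the corrected ratio was 0.861 in the control and 0.850 after knockdown, and the median absolute difference was 2.90 and 3.47 points. The corrected ratio nevertheless lay outside the 95% Wilson interval of junction retention for 155 introns, or 28.2%, in the control and for 166, or 30.2%, after knockdown. For 31 introns in the control junction retention was over 50 points above the corrected ratio. U2af2, the gene of the large U2AF subunit, held one of these, with a corrected retention of 10.1% beside a junction retention of 96.6% that rested on 2 spliced reads. No read on the exon-exon junction was found for 25 introns in the control and 28 after knockdown, 15 of them in both.

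**Figure D1:**
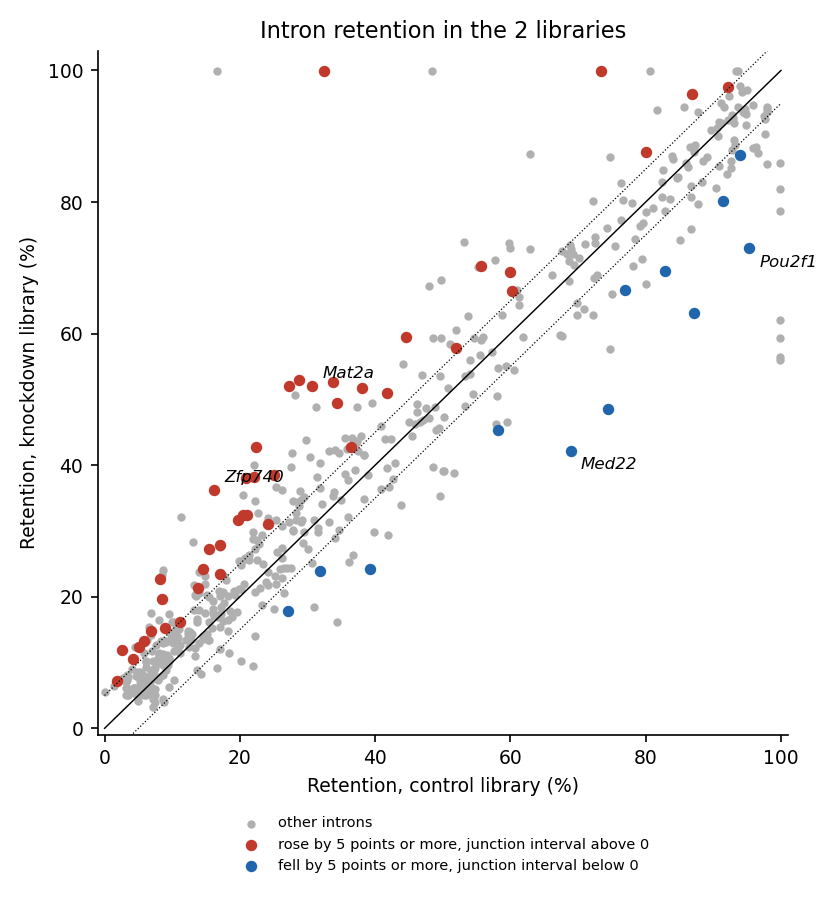
Retention of the 549 introns, with the control library on the x axis and the knockdown library on the y axis, both in percent. The solid line marks equal retention and the dotted lines a difference of 5 points, and the 42 red introns outnumber the 12 blue ones.

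Retention was more often higher than lower in the Ptbp1 knockdown library. It was higher in 356 introns, lower in 191 and equal in 2, and the median change was 1.60 points, with quartiles of -1.70 and 5.10. A rise of 5 points or more was seen in 143 introns (26.0%) and a fall of 5 points or more in 72 (13.1%). Over all 12328 middle segments of the database that pass the same filters, cassette exons and alternative splice sites included, 25.6% rose and 24.8% fell by as much. The share of retained introns that rose was thus near the background and the share that fell was below it. Over all these segments the median change was -0.1 points, and 49.2% were higher after knockdown, against 64.8% of the introns. Since the members were chosen on these same values, these shares are a description.

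The shift was also small in most introns, since 334 of 549 changed by less than 5 points. Both a change of 5 points and a 95% Newcombe interval of the difference in junction retention on the same side of 0 were found for 42 introns that rose and 12 that fell, which is 7.65% and 2.19% of the introns. The background over all segments was 7.28% and 6.82%. The shares were 3.82% and 3.30% among alternative acceptor segments, and 6.68% and 2.69% among alternative donor segments. The median width of this interval was 17.0 points, so that a change of 5 points could not be told from counting error in most introns. Among the 76 introns with fewer than 100 reads in a library, 29 rose and 19 fell, and their median absolute change was 6.45 points. Among the 184 introns with at least 1000 reads in each library, 25 rose and 21 fell, and the median absolute change was 2.55 points. Of the 289 introns between these depths, 89 rose and 32 fell, with a median absolute change of 4 points. Most of the excess of rises thus lay in the introns of intermediate depth.

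Measures of intronic reads that do not use the threshold moved in the same direction. They come from the same reads and from introns chosen on the corrected ratio, so they are not separate support. The depth of the intron relative to its flanking exons had a median log2 ratio of 0.13 between the knockdown and the control library and was higher in 352 introns and lower in 196. The 166 introns below 5% in both libraries, which are not members, had higher retention after knockdown in 83 cases, lower in 35 and equal in 48, with medians of 1.00% and 1.35%. Their median log2 ratio of intron to exon depth was 0.20. Introns below 5% have little room for a fall, and the 116 introns above 95% in both libraries were not counted in this way. A general difference between the libraries in intronic reads, such as more unspliced RNA in one of them, was not tested.

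Mat2a, which encodes the methionine adenosyltransferase that makes S-adenosylmethionine, had the best supported rise. Its last intron, intron 8 of 8 (chr6:72384390-72384974, minus strand, 585 bases), is a textbook case of a regulated retained intron. Its retention was 30.7% in the control and 52.0% after knockdown, estimated from 51939 and 60517 reads. In the control library 721 and 849 reads lay on its boundaries and 1384 on the exon-exon junction, and after knockdown 1396 and 1636 lay on the boundaries and 957 on the junction. Junction retention was 36.2% (95% Wilson interval 34.2 to 38.2) and 61.3% (59.4 to 63.2), with a Newcombe interval of the difference of 22.3 to 27.9 points. The depth of the intron was 41.7% of the mean of its exons in the control and 68.9% after knockdown. Boundaries, junction and depth thus all changed towards more retained transcript, while the abundance of the gene had a log2 ratio of 0.15.

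The other large rises were in genes of several functions and rested on far fewer reads. In Zfp740, a zinc finger gene, the intron with the GC donor shown above had a retention of 16.2% in the control and 36.2% after knockdown, with a Newcombe interval of 11.8 to 27.9 points. Its exon-exon junction had 212 reads in the control and 124 after knockdown. In Qtrt1, the catalytic subunit of the enzyme that puts queuine into tRNA, the intron of 76 bases printed above had 20.9% and 38% (interval 6.23 to 22.5). The intron thus stayed the minority form in both genes. Dnajb2, a co-chaperone of the Hsp40 family, had 44.6% and 59.5% in its last intron (chr1:75240237-75241368, plus strand, interval 4.15 to 20.7 points). Its boundaries were uneven in both libraries, with 62 and 225 reads in the control and 82 and 279 after knockdown.

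The 3 rises with the fewest reads of the 10 were Cep97, Parp10 and Sigirr. Cep97, a centrosome protein gene, had 27.2% and 52.1% from 132 and 110 reads, and its interval of 0.205 to 38.5 points nearly reached 0. Parp10, a mono-ADP-ribosyltransferase gene, had 28.7% and 53.0% in its first intron, which lies in the 5′ UTR (interval 2.86 to 39.3). Sigirr, an inhibitory receptor of the interleukin-1 family, had 22.1% and 38.2% in its last intron (interval 2.72 to 47.4). These intervals span more than 35 points each, so the size of the change is poorly known. Romo1, a gene of a mitochondrial membrane protein, had 22.4% and 42.8% (interval 5.54 to 33.4) with 6 and 55 boundary reads in the control, the larger number at the 3′ boundary. In 1600012H06Rik the retention was 33.7% and 52.6%, but 3 overlapping introns of this gene share a donor, and this one had 6 spliced reads in the control and 0 after knockdown. An intron of 373 bases on the unplaced contig 9_random, with no annotated gene, had 34.3% and 49.4% (interval 8.29 to 24.0).

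Falls were fewer, and they started from higher levels. The 12 introns that fell with an interval below 0 had a median control retention of 75.7%, against 22.3% for the 42 that rose with an interval above 0. The control level is itself part of the change, and a high level leaves little room for a rise, a low one little for a fall. This contrast is therefore in part built in. Over all members, 68 rose and 6 fell among introns below 25% in the control, and 10 rose and 32 fell at 75% and above. Med22, which encodes a subunit of the Mediator complex, fell from 68.9% to 42.2% in its last intron (chr2:26761514-26763612, minus strand, 2099 bases). Its exon-exon junction had 100 reads in the control and 182 after knockdown, although the trio had fewer reads there, 8822 against 13994. The interval of the difference was -32.4 to -19.3 points, and the depth of the intron went from 82.9% of its exons to 49.1%. Slc35a4, a member of a nucleotide sugar transporter family, was close to it with 74.4% and 48.5% in its last intron (interval -31.4 to -20.3). Med22 and Slc35a4 had the only falls of over 25 points in this group.

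The other falls with intervals below 0 were smaller or less well covered. 2310022A10Rik had 87.1% and 63.1% (interval -26.1 to -11.9), and its exon-exon junction went from 25 to 73 reads. Pou2f1, the gene of the transcription factor Oct-1, had 95.3% and 73.0%, with 1 spliced read in the control and 8 after knockdown. 2500003M10Rik had 39.2% and 24.2% in intron 2 of 5 (chr3:90310184-90311466, minus strand, interval -18.4 to -9.91). Of these 12 falls, 3 began below 50%, and this was the largest of them. Lrrc51 had 82.8% and 69.5%, Dapk1, a death-associated protein kinase gene, had 58.2% and 45.3%, and Sec14l1 had 91.4% and 80.1%. Magt1, which encodes a subunit of the oligosaccharyltransferase, had 77.0% and 66.6%, and its interval of -17.7 to -0.00473 ended next to 0. Zcchc2 had 27.1% and 17.9% (interval -17.9 to -4.14).

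**Figure D2:**
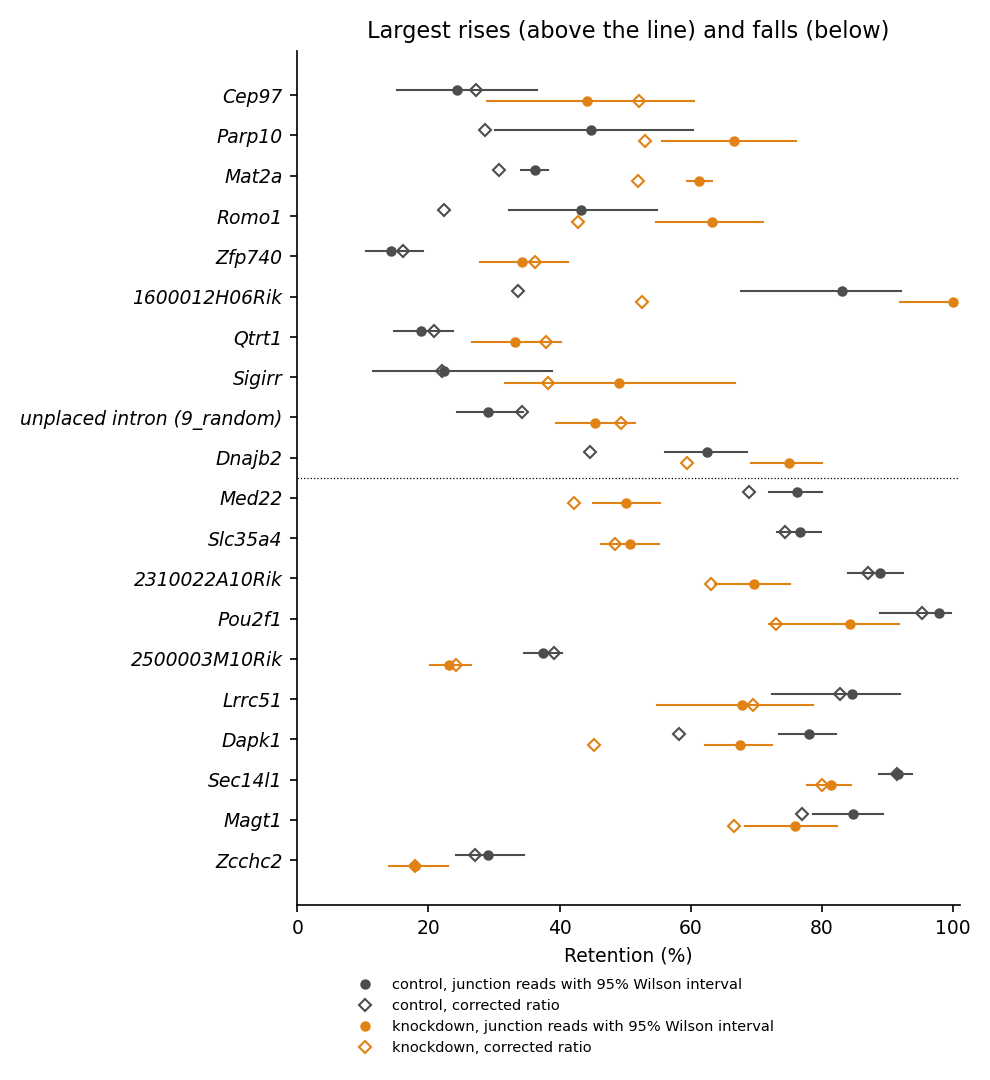
The 10 largest rises and the 10 largest falls, 1 row per intron, with retention in percent on the x axis, filled circles for junction retention with its 95% Wilson interval and open diamonds for the corrected ratio, in grey for the control and orange for the knockdown library. The intervals of Mat2a and Med22 are narrow and far apart, whereas those of Cep97 and Sigirr are wide and overlap.

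**Figure D3:**
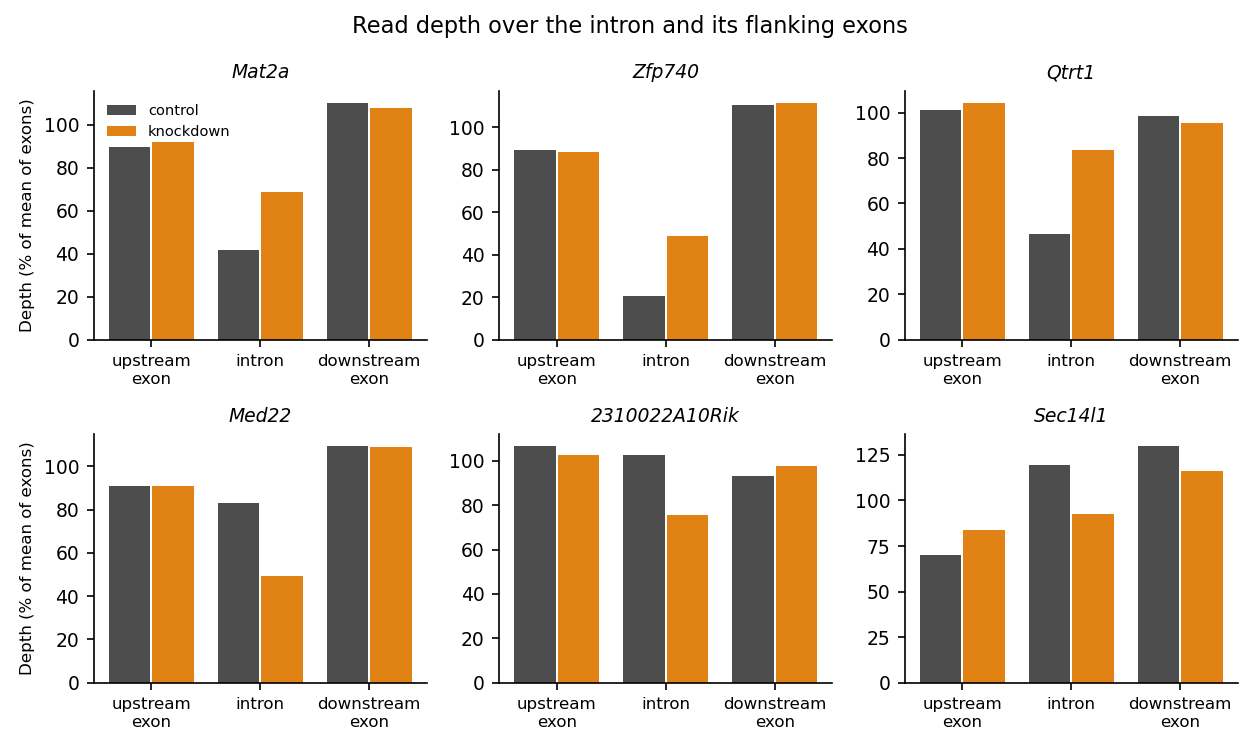
Read depth over the upstream exon, the intron and the downstream exon of 6 introns, in percent of the mean depth of both exons in the same library, with grey bars for control and orange bars for knockdown. Intron depth was higher after knockdown for Mat2a, Zfp740 and Qtrt1 and lower for Med22, 2310022A10Rik and Sec14l1.

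Some of the largest changes without regard to depth were of a different kind. The intron of 2410017P09Rik went from 16.6% to 99.9% and that of Glyctk from 99.9% to 56.0%. Neither intron had a spliced read in either library, so their junction retention was 100% in both. A corrected ratio of 99.9% occurred in 1 or both libraries for 14 of the 549 introns.

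Last introns were frequent among the falls. By the annotated coding transcript with the longest coding sequence that splices the intron, or a noncoding one where there was none, 479 introns could be placed, and 116 of them, or 24.2%, were the last intron. Of the 12 falls with an interval below 0, 11 could be placed and 8 were last introns, among them those of Med22, Slc35a4, 2310022A10Rik, Pou2f1, Lrrc51, Sec14l1, Magt1 and Zcchc2. Of the 42 rises, 37 could be placed and 11 were last introns, those of Mat2a, Cep97, Sigirr and Dnajb2 included. With the threshold of 5 points alone, 21 of 60 placed falls (35%) and 23 of 128 placed rises (18%) were last introns. The group was chosen on the change, so these counts carry no test.

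Last introns also had higher retention to begin with. In transcripts with more than 1 intron, the control median was 42.9% for 109 last introns, 48.0% for 39 first introns and 19.7% for 324 internal introns. The medians after knockdown were 46.5%, 49.0% and 22.1%. In last introns 20 rose and 21 fell, in first introns 14 rose and 8 fell, and in internal introns 91 rose and 31 fell. Rises and falls were thus nearly equal in number in last introns, whereas in internal ones rises outnumbered falls. Most last introns and most internal introns changed by less than 5 points. The annotation held 86 of the 116 last introns (74.1%) inside an exon of a coding transcript, against 88 of 363 other placed introns (24.2%). For these introns a retained transcript and a transcript with a longer or alternative last exon cannot be told apart in a trio of this kind.

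**Figure D4:**
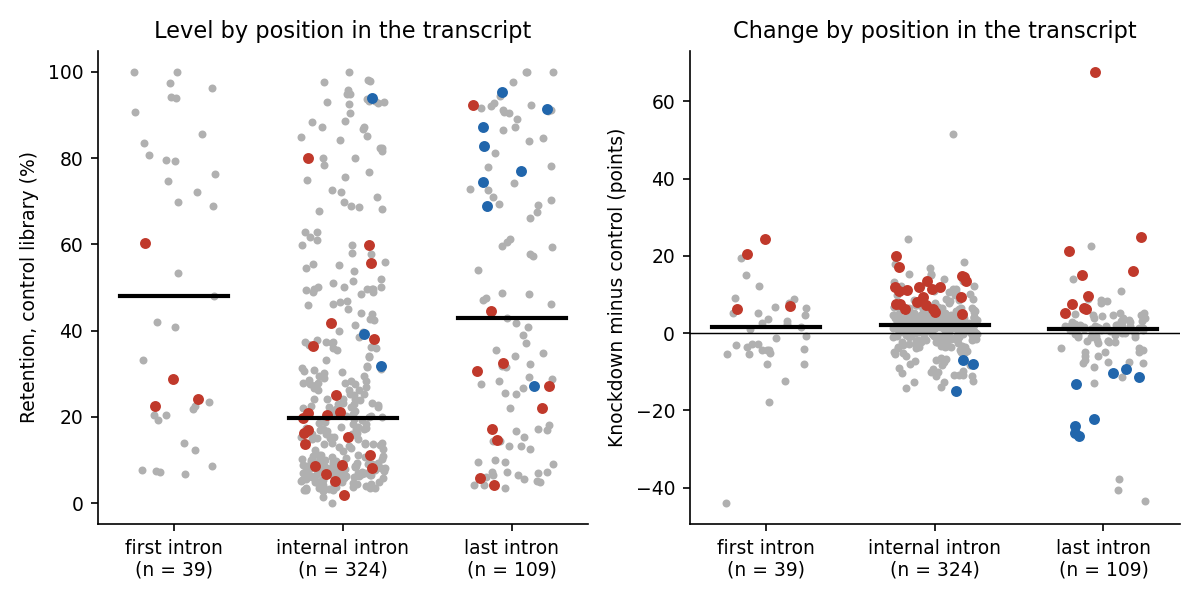
Control retention in percent (left) and the change in points (right) of placed introns by position, 1 point per intron, with the black bar at the median and the introns whose interval lies above or below 0 in red and blue. Most blue points lie in the last introns, and the medians for first, internal and last introns are 48.0%, 19.7% and 42.9%.

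Median retention was similar in 3 groups of intron length, but the order of the groups depended on the introns taken. Lengths ran from 2 to 6792 bases, with a median of 285 and quartiles of 112 and 684. Ordered by length and divided into 3 equal groups of 183, the shortest introns (2 to 150 bases) had a median retention of 28.3% in the control and 32.4% after knockdown. The middle group (150 to 503 bases) had 26.2% and 32.4%, and the longest group (504 to 6792 bases) had 26.9% and 27.9%. These medians differ by far less than the spread within a group, whose control quartiles were 14.8% and 60.6% among the shortest and 9.20% and 58.5% among the longest. Across introns the rho of length with retention was -0.0509 in the control and -0.0723 after knockdown. The difference of control medians between the shortest and the longest group, 1.40 points, was -3.94 with junction reads alone, 6.30 without last introns and 7.85 with no limit on retention. The 91 introns of 1000 bases or more had lower medians, 19.3% and 20.2%, than the 224 introns under 200 bases, 27.6% and 31.6%.

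Rises were spread unevenly over the lengths. In the shortest group 55 introns rose and 25 fell, in the middle group 57 rose and 17 fell, and in the longest group 31 rose and 30 fell. With the interval also required, the counts were 13 and 2, 18 and 4, and 11 and 6. Length went together with other properties. From the shortest to the longest group the median GC content fell from 58.5% to 48.8%, the median reads after knockdown rose from 388 to 1225, and the share of last introns among placed ones rose from 12.1% to 38.5%. Their part in the difference was not tested. The 8 introns under 60 bases, of which the shortest had 2, are shorter than introns known to be spliced by the usual route, and in 3 of them retention fell by 5 points or more and in 2 it rose.

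**Figure D5:**
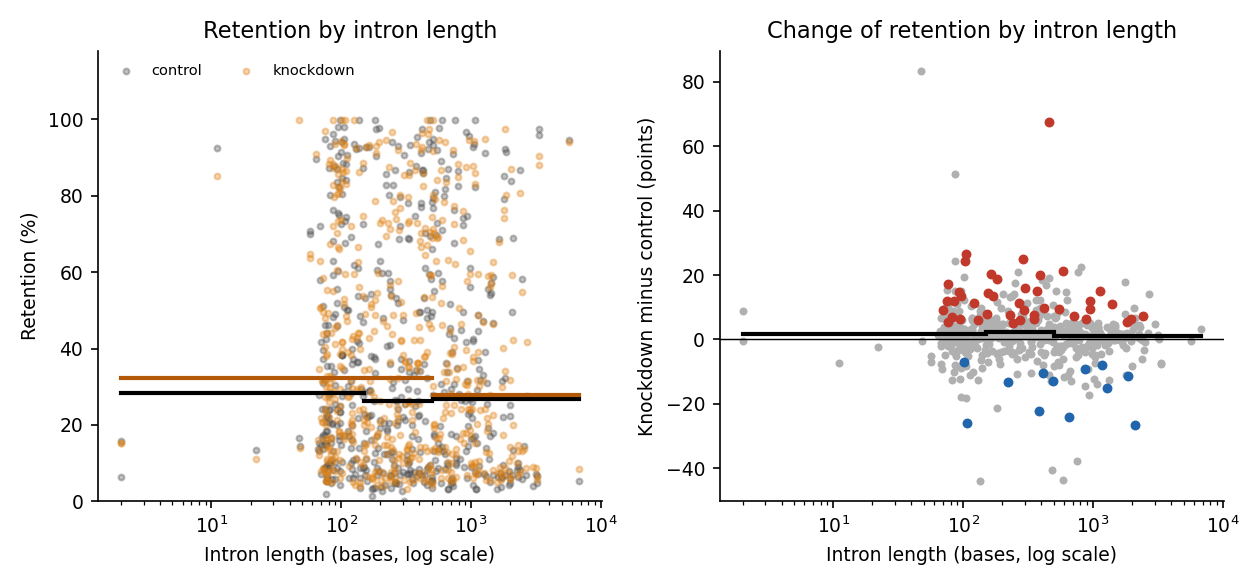
Retention in percent (left, grey for control and orange for knockdown) and its change in points (right) against intron length in bases on a log scale, 1 point per intron and library, with horizontal bars at the medians of the 3 length groups. The bars lie between 26.2% and 32.4% over the whole range of lengths.

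Most introns lay inside the coding region. There were 376 of these, 38 in the 5′ UTR, 42 in the 3′ UTR, 23 in genes without a coding transcript for the intron, and 70 whose ends no annotated transcript splices. Control medians were 20.6% in the coding region, 41.5% in the 5′ UTR and 49.5% in the 3′ UTR. Read on from the upstream exon, the intron held a stop codon in the frame in 298 of the 376 coding introns and none in 78. Those with a stop had a median control retention of 17.1% and those without had 37.9%. Their median lengths also differed, 384.5 bases with a stop and 100.5 without, as did the shares of last introns, 22.5% and 10.3%. The part of these properties in the difference was not tested. In the first group 75 rose and 35 fell, and in the second 28 rose and 8 fell. Of all 549 introns, 192 (35%) had a length that is a multiple of 3.

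The annotation already held many of the retained forms. For 400 introns a transcript of the gene covers the intron within 1 exon, and their median control retention was 30.5%, against 18.4% for the other 149. Cufflinks assembled an exon that spans the intron for 139 introns in the control, for 153 after knockdown and for 85 in both. An exon of another gene lay in 17 introns on the opposite strand and in 3 on the same strand, and a small RNA gene lay in 7. None of those 7, which include the introns of Snhg1, Eif4a2 and Gnb2l1, changed by 5 points. Members also overlapped each other, since 120 of them (21.9%) share bases with another member on the same strand and therefore share reads.

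The 3 Mau2 events show what such sharing does to the values. With the donor at 72547512 the retention was 22.9% in the control and 28.0% after knockdown, and with the donor at 72547509 it was 19.8% and 31.6%. With the donor at 72547505 it was 74.8% and 57.6%, from 6 and 13 spliced reads. The same stretch of intron thus counted as a rise and as a fall, depending on the junction it was set against.

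Retention was spread over many genes. The 549 introns had 446 host genes, and 5 introns had none. Of these genes 371 had 1 intron, 54 had 2, 19 had 3, and Skiv2l and Ankrd13b had 4. Among the 75 genes with more than 1 intron, 46 had all of their changes on the same side of 0 and 29 had changes on both sides. Overlapping introns are counted here as separate changes, although they share reads. Skiv2l, a helicase of the SKI complex that feeds RNA to the exosome, had retentions of 27.8%, 17.5%, 19.9% and 27.6% in the control and 34.6%, 20.7%, 25.4% and 24.3% after knockdown. Ankrd13b, an ankyrin repeat gene, had 69.4%, 86.0%, 30.1% and 18.5% against 70.5%, 85.9%, 27.2% and 17.8%, although its abundance had a log2 ratio of 0.56. All 4 introns of Ankrd13b thus stayed within 5 points, but the 2 with 69.4% and 86.0% in the control overlap and share reads. In Phf1, a gene of a Polycomb-associated protein, all 3 introns had lower retention after knockdown, from 20.2%, 39.8% and 41.9% to 10.2%, 29.8% and 29.4%, on 83 to 161 reads, and 2 of these introns overlap.

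Host gene abundance differed little between hosts of rises and hosts of falls, and the values depended on the scaling. The median log2 FPKM ratio was -0.08 over 433 host genes with a value and -0.05 over 13408 genes. It was -0.07 for 122 hosts of introns that rose and 0.03 for 65 hosts of introns that fell, both well inside the quartiles of all hosts, -0.28 and 0.22. Across 529 introns the rho of the change with the log2 ratio of the host was -0.0780. With FPKM divided by the median of each library, the value for the hosts of rises became 0.0099, so its sign depends on the scaling. That for the hosts of falls became 0.11, with an interval of 0.0148 to 0.302.

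Genes of RNA processing are known for retained introns that tune their own output, and their introns were counted by list. In the list of SR proteins and their kinases, 6 introns were measured, of which 1 rose, 1 fell and 4 changed by less than 5 points, with a median change of 1.90 beside 1.60 over all members. The rise was in Clk3, a kinase of SR proteins, with 28.7% and 33.8%, and the fall was in Sugp2 with 36.2% and 25.3%, and the intervals of both included 0. Clk1, whose retained introns are well known, had 19.3% and 20.3%, and Srsf1 had 8% and 10.8% on 90193 and 57534 reads. The core spliceosome list held 5 introns, of which 1 rose and 1 fell, with a median change of 2.80. Both of these were overlapping introns of Rnpc3, a gene of the minor spliceosome, which had 27.7% and 41.8% for the longer and 16.6% and 9.20% for the shorter. The intervals of both Rnpc3 introns included 0.

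The list of hnRNP and other RNA-binding proteins held 9 introns, of which 2 rose and 1 fell, with a median change of 2.40. The rises were in Taf15 (35.9% and 42.4%, with 0 spliced reads in both libraries) and Hnrnpc (51.9% and 57.8%, interval 3.46 to 20.7 points), and the fall was in Rbm5 (95.9% and 88.2%). Tardbp, which encodes TDP-43 and controls its own transcript through its last exon, had 90.9% and 92.1% in one intron and 95.8% and 94.7% in the other. Junction retention of the first was far lower, 56.3% and 63.1%, and rose, with an interval of 4.24 to 9.40 points. That of the other was 83.0% and 84.6%, with an interval of -0.611 to 3.83. Of 11 introns in ribosomal protein and snoRNA host genes 1 rose, in Rps27a with 60.2% and 66.5%, and 0 fell, with a median change of 0.5. The largest drop in that list was that of an Eif4a2 intron, with 29.3% and 28.2%. The 3 introns of tRNA synthetase genes changed by less than 5 points, with the largest rise in Tars2 (3.70% and 5.50%) and the largest drop in its overlapping intron (79.1% and 76.4%). Thoc1, a subunit of the THO export complex, gave the only intron of the decay and export list, with 62.9% and 72.8%. The intron of Thoc1 had an interval that included 0.

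Few introns of neuronal synapse and channel genes were measured. Dlg3, a scaffold of the postsynaptic density, had 0.1% and 5.50%, Dnm1, the neuronal dynamin, had 54.1% and 56.0%, and Vamp1, a synaptic vesicle SNARE, had 78.1% and 70.3%. Dlg3 had 20 reads in the control and 40 after knockdown, and the intervals of Dlg3 and Vamp1 included 0. For Dnm1 the interval of junction retention was -8.63 to -1.60 points, against the direction of its corrected ratio. The hosts Vamp1 and Dnm1 themselves were more abundant after knockdown, with log2 ratios of 0.66 and 0.43.

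The ends of the range are given for both libraries. Among introns with at least 500 reads in each library, the lowest mean retention was in Mgea5 (3.10% and 5.00%), Timeless (3.50% and 5.00%), Psmd4 (3.50% and 5.00%), Tars2 (3.70% and 5.50%) and Usp42 (5.00% and 4.20%). The highest was in Uaca (93.3% and 99.9%), Becn1 (97.9% and 94.5%), Pcnp (95% and 97.0%), Actr3 (97.9% and 94.1%) and Lancl1 (97.5% and 93.1%). Boundary reads were very uneven in Actr3 (584 and 1 in the control), Lancl1 (463 and 48) and Pcnp (839 and 110). High retention there was thus not seen alike at both ends of the intron. Several of the introns named at either end of the range are also at the limits of the selection. Timeless and Mgea5 lay just inside 5%, and Urod (2.40% and 4.90%) and Ift122 (2.70% and 4.90%) just outside. Pcnp lay just inside 95%, with Cuta (95.3% and 95.6%) and Dnmt3a (95.2% and 99.8%) just outside. Dlg3 with 20 reads and Med15 with 21 lay just inside the minimum, and Afmid and Klhl15 with 18 lay just outside it.

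Near the acceptor, the introns that fell held TCTTT at a higher share than those that rose. The median share of pyrimidines in the 50 bases before the acceptor dinucleotide was 60% for introns that rose, 64.0% for those that fell and 62.0% for the rest. CTCTCT was searched in the last 100 bases of introns of at least that length, on the transcribed strand only. It was found in 63 of 632 introns with enough reads (9.97%), in 11 of 107 that rose (10.3%) and in 9 of 58 that fell (15.5%). TCTTT, which can overlap CTCTCT, was found in 192 of the 632 (30.4%), in 22 that rose (20.6%) and in 24 that fell (41.4%). Among the falls with an interval below 0 TCTTT was in 7 of 12, and among such rises in 8 of 32. CTCTCT was at similar shares there, in 2 of the 12 falls (16.7%) and 5 of the 32 rises (15.6%). Among all members, introns that fell were also longer than those that rose, with medians of 397.5 and 231 bases. They were more often last introns, 35% against 18% of those placed. The part of these properties in the difference was not tested. The motifs are short and occur in many introns, and a match is not a binding site.

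A donor of the minor spliceosome type, an A or G followed by TATCCTT, began 3 introns. They lay in 2410002I01Rik (69.8% and 62.9%), Zfp169 (83.9% and 87.0%) and Rfx5, a transcription factor of MHC class II genes (17.1% and 27.6%). Their directions differed, and the intervals of all 3 included 0. The reads on the boundaries were uneven in many introns. Among 438 introns with at least 20 boundary reads in the control, the 3′ boundary had over 3 times the reads of the 5′ boundary in 71 and the reverse was true in 25. In the knockdown library these counts were 59 and 26 of 463. Romo1 and Dnajb2 belong to the first kind.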

How the data were processed

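RNA-seq of N2A cells was analysed from 1 library per condition, grouped by the sample labels. Per the labels, reads were handled with CASAVA, TopHat and Cufflinks on mm9, and the methods name SpliceTrap. Versions are not given in the sources used here. The authors deposited, for each exon trio, the fraction of transcripts that include the middle segment, with and without its correction for the expected inclusion ratio. Also deposited by the authors were junction read counts without normalization and the coverage signal in reads per 100 bases, left unscaled. Isoform FPKM and read depth from Cufflinks were deposited too. FPKM was on an unusual scale and was used as a ratio between the libraries only.

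Retention was the corrected fraction times 100. Reads on a trio were its coverage times its length divided by 100. A change was knockdown minus control in percentage points, with a threshold of 5 points. Junction retention has 95% Wilson intervals, and its differences 95% Newcombe intervals. No test of the conditions was made, since there was 1 library each. Whether SpliceTrap used the strand is not given in the sources used here, so reads from genes on the opposite strand cannot be told apart. Host genes, positions and reading frames came from GENCODE on NCBIM37, and host abundance was the sum over isoforms that share introns with the gene, as log2 of FPKM with a pseudocount of 1. Of 549 introns, 5 had no annotated host.

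Named introns were the 10 largest rises and 10 largest falls among introns with 100 reads in each library and an interval on the same side of 0, 1 per gene. They were also the 5 highest and 5 lowest levels among introns with 500 reads, the largest rise and drop of each gene list, the genes with most introns, and introns at the limits of the selection. Other introns and genes in the text were chosen after their values were seen. Some items are not reported here. The members and the gene lists were chosen with earlier results of these data known. Alternatives were other read minimums and limits, the uncorrected ratio, junction reads alone, the mean over trios, 10 points, filters on overlapping genes and 1 event per gene. Added after seeing the data were leaving out last introns, minimums of 10 exon-exon reads and of 100 reads, and a restriction to annotated introns of at least 60 bases. The intervals were tested on simulated data. Scripts ran on Python 3.11.15 with pandas 2.3.3, SciPy 1.17.1, NumPy 2.4.6, matplotlib 3.10.9 and pysam 0.24.0.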

Additional observations from a re-analysis of the deposited data

How the results depend on the processing

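Of 120 values under alternative settings, 102 stayed within 1.5 times the main value, for counts, or kept its sign and stayed inside its interval over introns or host genes, for medians and their differences. The 549 introns became 836 with no limit on retention. The 143 rises and 72 falls became 56 and 35 at a threshold of 10 points, and 42 and 12 with the Newcombe interval required. In every alternative that was run there were more rises than falls. The median control retention of 26.9% was 30.9% with limits of 10% to 90%, 23% without last introns and 23% with at least 10 exon-exon reads. The median knockdown retention of 31.0% was 26.1% with no limit, 35.4% with limits of 10% to 90% and 25.9% with at least 10 exon-exon reads. The median change of 1.60 points was 0.450 with no limit, which adds introns that are nearly always spliced or retained, and 2.10 with limits of 10% to 90%. The difference of control medians between the shortest and the longest of 3 equal length groups, 1.40 points, turned to -0.150 with 50 reads, -1.65 with limits of 10% to 90%, -3.94 with junction reads alone and -1.30 with 100 reads in each library. It rose to 7.85 with no limit, 8.30 between introns under 200 and of 1000 bases or more, 6.30 without last introns, 5.30 with 10 exon-exon reads and 5.00 with annotated introns of at least 60 bases. The median log2 ratio of hosts of rises, -0.07, turned to 0.0099 with FPKM divided by the library median, and that of hosts of falls, 0.03, became 0.11. The causes were not tested. Leaving out a replicate was not run, and no paired analysis was possible because each condition had 1 library.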
